A study of Mus musculus with 6 samples.

Results

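Genes that detect or relay double-stranded RNA were followed in healing infarcts of Irf3 knockout mice and of wild-type mice. They are the RIG-I-like receptors Ddx58, Ifih1 and Dhx58, the related helicase Ddx60, the adaptor Mavs and the kinase Eif2ak2, and they were chosen by name as a functional group. All 6 of the 6 genes were found by symbol among the 12969 genes of the table, and all 6 passed the filter of a mean of at least 1 RPKM that 12913 genes passed. The Irf3KO group comprised 3 libraries from male mice of genotype IRF3-/-, and the WT group comprised 3 libraries from male wild-type mice of strain C57BL/6. The mice of both groups were about 12 weeks old and had infarct tissue taken 4 days after the left anterior descending coronary was tied off for good. The sources used here give neither the strain of the Irf3KO mice nor the deleted part of Irf3, and the labels name no shared litter or day.

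RIG-I-like receptors are helicases of the cytosol that recognise viral or misplaced RNA. RIG-I, the product of Ddx58, prefers short double-stranded RNA with a triphosphate end, and MDA5, the product of Ifih1, prefers long double-stranded RNA. Both pass the signal through their caspase recruitment domains to MAVS on the mitochondrial surface, which engages the kinase TBK1 and through it the transcription factor IRF3. LGP2, the product of Dhx58, lacks these domains and tunes the other receptors. DDX60 has been studied as a helper of RIG-I in human cells. PKR, the product of Eif2ak2, is activated by double-stranded RNA and halts translation by phosphorylating the initiation factor eIF2 alpha. Interferon is known to induce the genes of the receptors, of DDX60 and of PKR. RIG-I and MDA5 thus act upstream of IRF3, while their genes also lie downstream of the interferon it helps to switch on.

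Promoter sequences were looked up as a description of sequence, and none was at hand for Dhx58. RefSeq promoters of build GRCm38.p6 were at hand for 5 of the 6 genes, Ddx58, Ifih1, Ddx60, Mavs and Eif2ak2. The windows printed here run from 130 bases before to 50 bases after the annotated start, 5′ to 3′ on the strand of the gene, and capitals mark matches to the core GAAANNGAA of the interferon-stimulated response element on either strand.
Ddx58 promoter, chr4:40239776-40239955, minus strand: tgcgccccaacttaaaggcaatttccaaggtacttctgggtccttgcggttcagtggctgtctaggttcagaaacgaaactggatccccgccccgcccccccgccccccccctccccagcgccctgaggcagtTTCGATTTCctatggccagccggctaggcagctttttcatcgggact
Ifih1 promoter, chr2:62646206-62646385, minus strand: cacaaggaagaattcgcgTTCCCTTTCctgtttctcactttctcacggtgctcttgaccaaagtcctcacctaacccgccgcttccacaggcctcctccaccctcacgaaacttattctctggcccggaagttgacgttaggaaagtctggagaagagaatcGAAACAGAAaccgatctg
Ddx60 promoter, chr8:61927957-61928136, plus strand: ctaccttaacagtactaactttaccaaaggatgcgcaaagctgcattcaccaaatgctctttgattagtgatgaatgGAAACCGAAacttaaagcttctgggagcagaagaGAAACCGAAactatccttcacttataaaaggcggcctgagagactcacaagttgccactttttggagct
Eif2ak2 promoter, chr17:78882523-78882702, minus strand: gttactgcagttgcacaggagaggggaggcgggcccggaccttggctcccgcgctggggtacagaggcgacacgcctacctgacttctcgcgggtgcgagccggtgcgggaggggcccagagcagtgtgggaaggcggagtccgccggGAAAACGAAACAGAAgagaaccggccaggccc
Mavs promoter, chr2:131233933-131234112, plus strand: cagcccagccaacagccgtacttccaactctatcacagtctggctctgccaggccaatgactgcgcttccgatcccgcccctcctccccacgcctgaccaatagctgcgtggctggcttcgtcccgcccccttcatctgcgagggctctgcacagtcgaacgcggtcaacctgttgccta

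The response element is the sequence that several IRF proteins are known to bind. Binding was not measured here, and the part of the element in the levels of these genes was not tested. Its core was present in the full 300-base promoters of Ddx58, Ifih1, Ddx60 and Eif2ak2, 4 of the 5 examined, and 8.56% of all 32851 RefSeq promoters of that length hold it. With 1 more A required after the core, the same 4 genes held it, beside 3.44% of all promoters. Ddx60 carried the core at bases -53 to -45 and again at -19 to -11, each time with the same letters. In Eif2ak2 the core stood at bases 19 to 27 and at 25 to 33 after the start, so that the matches shared 3 bases. Ifih1 had 1 match at bases -112 to -104 on the opposite strand and 1 at bases 33 to 41, and Ddx58 had 1 on the opposite strand at bases 4 to 12. In the Mavs promoter these letters were not found in the window. The gamma-activated site core TTCNNNGAA was searched in the same way and overlapped none of the matches above: it was present in Eif2ak2 at bases -178 to -170, and 8.3% of all promoters hold it.

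The values were RPKM, the authors' reads per gene scaled by gene length and by library depth. This scaling does not even out differences in composition between libraries. Steps between low values placed Irf3KO replicate 3 at 61.9 M reads in genes and the other libraries at 14.8 M to 20.8 M. Between 44 and 3858 reads stood behind each value of the 6 genes. Irf3 itself was still read in the Irf3KO libraries, at 7.4, 8.74 and 7.68 RPKM, against 13.76, 13.87 and 11.56 RPKM in WT, lower in all 3 but not absent. Cardiomyocyte, fibroblast, macrophage and endothelial markers were read in every library, while none of the 5 lymphocyte markers looked for is among the listed genes. Irf3KO replicate 2 stood apart, with a mean correlation of 0.907 with the other libraries, against 0.941 to 0.966 for the others, and a median-of-ratios factor of 0.817, against 1.02 to 1.09 for the others. Its 15 macrophage markers summed to 2243 RPKM, against 5829 and 4680 RPKM in Irf3KO replicates 1 and 3 and 3447 to 6270 RPKM in WT, and its 12 cardiomyocyte markers to 24085 RPKM, against 15384 and 17741 RPKM in Irf3KO replicates 1 and 3 and 7253 to 19859 RPKM in WT. Lyz2 was the largest part of the macrophage sums, at 833 RPKM in Irf3KO replicate 2 and 3826 and 2859 RPKM in Irf3KO replicates 1 and 3. In tissue RNA, fewer cells of a type and less RNA per cell cannot be told apart.

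Genes of the receptors, of DDX60 and of PKR were lower in all 3 Irf3KO libraries than in any WT library, by 2.3-fold to 3.51-fold in the ratio of mean RPKM, while the Mavs groups overlapped. None of the 6 passed the test across genes, which was limma on log2(RPKM + 1) with Benjamini-Hochberg adjustment over 12913 genes and a threshold of 0.05. It called 0.503% of all genes, 0.356% lower and 0.147% higher in Irf3KO. All Irf3KO libraries lay below all WT libraries in 11.8% of all genes and above them in 6.61%. Of the 6 genes, 5 had groups that did not overlap, and the same 5 had an unadjusted p under 0.05, as did 8.4% of all genes. The median log2 ratio of Irf3KO over WT, taken on RPKM + 1 here and throughout, was -1.12 over the 6 genes and -0.09 over all genes tested. With 3 against 3 libraries an exact permutation test of 1 gene cannot go below p = 0.1.

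**Figure D1:**
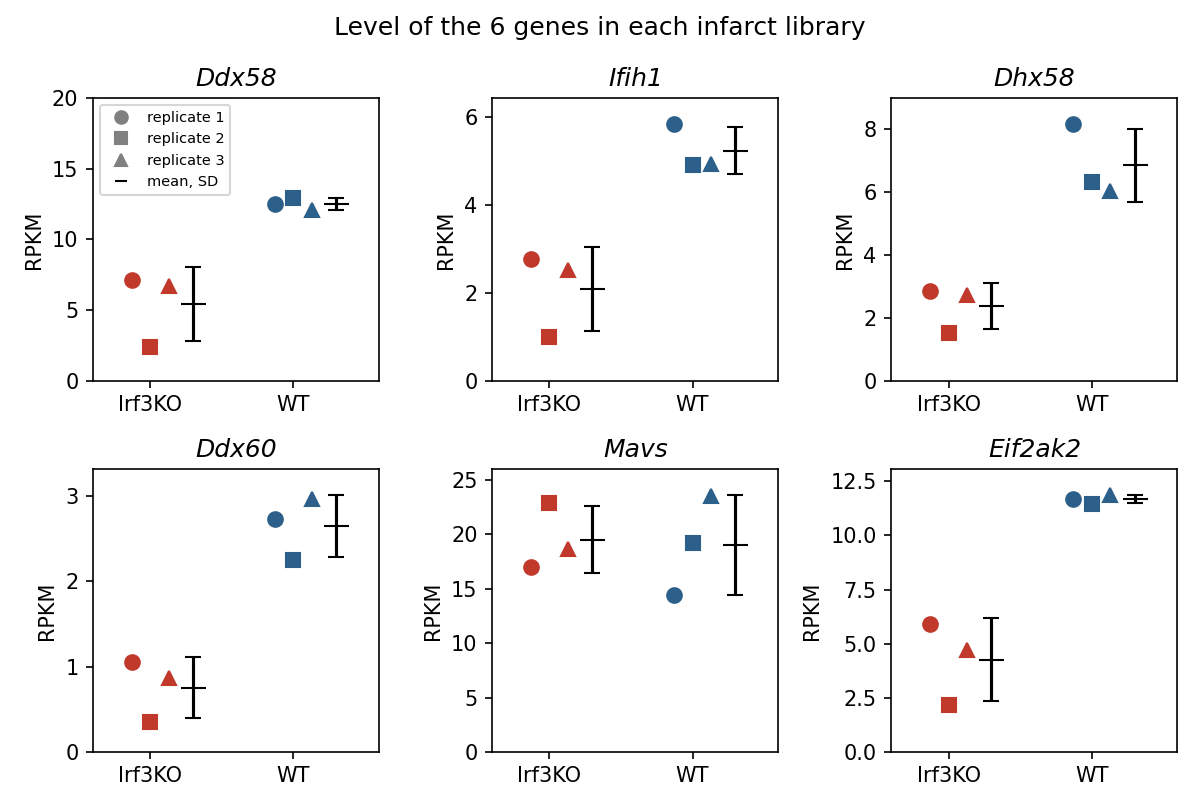
Level in RPKM (y axis) of each of the 6 genes in the 3 Irf3KO and the 3 WT libraries, with marker shapes for replicates and a bar for the mean and SD of each group. In 5 panels every Irf3KO library sits below every WT library and Irf3KO replicate 2 is lowest, at 0.35 RPKM for Ddx60 and 2.41 RPKM for Ddx58, whereas the Mavs groups overlap.

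Of the sensors, Ddx58 on chromosome 4 (40203777 to 40239825, GRCm38.p6) stood at 7.13, 2.41 and 6.72 RPKM in Irf3KO replicates 1 to 3, against 12.47, 12.9 and 12.06 RPKM in WT replicates 1 to 3. The WT libraries lay within 1 RPKM of each other, and Irf3KO replicate 2 had less than either other Irf3KO library. The means were 5.42 ± 2.61 RPKM in Irf3KO and 12.5 ± 0.420 RPKM in WT (SD, n = 3 each), a log2 ratio of -1.17 ± 0.33 (SE; limma adjusted p = 0.361). Without Irf3KO replicate 2 it was -0.77 ± 0.12 (adjusted p = 0.0559), so that the size of the difference rested in part on that library.

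Ifih1, the long-RNA sensor on chromosome 2 (62595618 to 62646255), stood at 2.77, 1 and 2.51 RPKM in Irf3KO and at 5.85, 4.91 and 4.94 RPKM in WT. Its means were 2.09 ± 0.956 RPKM in Irf3KO and 5.23 ± 0.534 RPKM in WT (SD, n = 3 each). The log2 ratio was -1.06 ± 0.26 (limma adjusted p = 0.249), and -0.77 ± 0.14 without Irf3KO replicate 2 (adjusted p = 0.0743). Both sensors thus had the same order of libraries within Irf3KO, replicate 1 highest and replicate 2 lowest.

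Of the regulators of the sensors, Dhx58 on chromosome 11 (100694884 to 100704271) was read at 2.84, 1.52 and 2.73 RPKM in Irf3KO, against 8.16, 6.31 and 6.03 RPKM in WT. It averaged 2.36 ± 0.732 RPKM in Irf3KO and 6.83 ± 1.16 RPKM in WT (SD, n = 3 each), a 2.89-fold lower mean and a log2 ratio of -1.24 ± 0.23 (limma adjusted p = 0.0814). By p it ranked 92 of the 12913 genes. Without Irf3KO replicate 2 it passed the test at -1.04 ± 0.16 (adjusted p = 0.0418), and after median-of-ratios scaling at -1.14 ± 0.18 (adjusted p = 0.0479).

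Ddx60 on chromosome 8 (61928073 to 62037704) had the lowest level of the 6, with 1.05, 0.35 and 0.86 RPKM in Irf3KO and 2.73, 2.25 and 2.96 RPKM in WT. About 108, 44 and 369 reads stood behind the Irf3KO values and 322 to 357 behind the WT values, and the counting error of 44 reads alone is 15.1%. Its means of 0.753 ± 0.362 RPKM in Irf3KO and 2.65 ± 0.362 RPKM in WT (SD, n = 3 each) were 3.51-fold apart, the widest ratio of the 6 genes, with a log2 ratio of -1.07 ± 0.20 (limma adjusted p = 0.0887). At this level the added 1 shrinks the fold change, and with 0.1 added in its place it was -1.79 ± 0.39 (adjusted p = 0.190).

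Eif2ak2, the kinase gene on chromosome 17 (78850504 to 78882572), had 5.9, 2.16 and 4.72 RPKM in Irf3KO and 11.7, 11.47 and 11.86 RPKM in WT. The WT libraries were the tightest of any of the 6 genes, with a mean of 11.7 ± 0.196 RPKM, beside 4.26 ± 1.91 RPKM in Irf3KO (SD, n = 3 each). Its log2 ratio was -1.34 ± 0.29 (limma adjusted p = 0.142). Without Irf3KO replicate 2 it passed at -1.01 ± 0.14 (adjusted p = 0.0284), 2.20-fold lower in mean RPKM than WT.

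Mavs, the adaptor gene on chromosome 2 (131234063 to 131248025), stood at 16.95, 22.92 and 18.63 RPKM in Irf3KO and at 14.39, 19.17 and 23.55 RPKM in WT. The groups overlapped throughout, with the highest and the lowest library both WT. The means were 19.5 ± 3.08 RPKM in Irf3KO and 19.0 ± 4.58 RPKM in WT (SD, n = 3 each), a log2 ratio of 0.05 ± 0.23 (limma adjusted p = 0.921). Its 95% interval ran from -0.48 to 0.57 and held none of the values of the other 5 genes, while a change inside that interval was not detectable with these libraries. Without Irf3KO replicate 2 the value was -0.068 ± 0.21, and without WT replicate 1 it was -0.13 ± 0.22, with the opposite sign.

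Set against Mavs within each library, the other 5 genes differed between the genotypes in the same direction. This follows from the levels given above, and all 5 comparisons share the level of Mavs, so they are no added evidence. The difference of log2(RPKM + 1) between Ddx58 and Mavs was -1.14, -2.81 and -1.35 in Irf3KO and -0.19, -0.54 and -0.91 in WT, without overlap. For Eif2ak2 and Mavs it averaged -2.03 ± 0.80 in Irf3KO and -0.63 ± 0.33 in WT (SD, n = 3 each). Without Irf3KO replicate 2 the difference between the group means shrank, to -0.70 for Ddx58 and -0.71 for Ifih1. Over the 5 genes and all libraries the Irf3KO mean minus the WT mean of this difference ran from -1.11 for Ifih1 to -1.39 for Eif2ak2. A two-sided exact permutation test gave p = 0.1 for each of the 5, also after adjustment over the 5, which is the smallest p that 3 against 3 libraries allow.

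Mean levels, scaled by gene length, had the same order of genes in both genotypes. In WT it ran from Mavs through Ddx58, Eif2ak2, Dhx58 and Ifih1 to Ddx60, and no neighbours in this order had overlapping libraries. The lowest Ddx58 library (12.06 RPKM) and the highest Eif2ak2 library (11.86 RPKM) were close. So were the lowest Dhx58 library (6.03 RPKM) and the highest Ifih1 library (5.85 RPKM). In Irf3KO every pair of neighbours below Mavs overlapped, so that only Mavs, at 19.5 RPKM, stood clear of Ddx58, the next gene at 5.42 RPKM.

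As shares of the WT mean, the 5 lower genes kept a rank order in Irf3KO replicates 1 and 3. Ddx60 was at 39.7% in Irf3KO replicate 1 and 32.5% in replicate 3, and Dhx58 at 41.6% and 40.0%. Eif2ak2 followed at 50.5% and 40.4%, Ifih1 at 52.9% and 48.0%, and Ddx58 was highest at 57.1% and 53.9%. In Irf3KO replicate 2 the 5 genes lay between 13.2% for Ddx60 and 22.2% for Dhx58. These differences between genes were not tested.

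**Figure D2:**
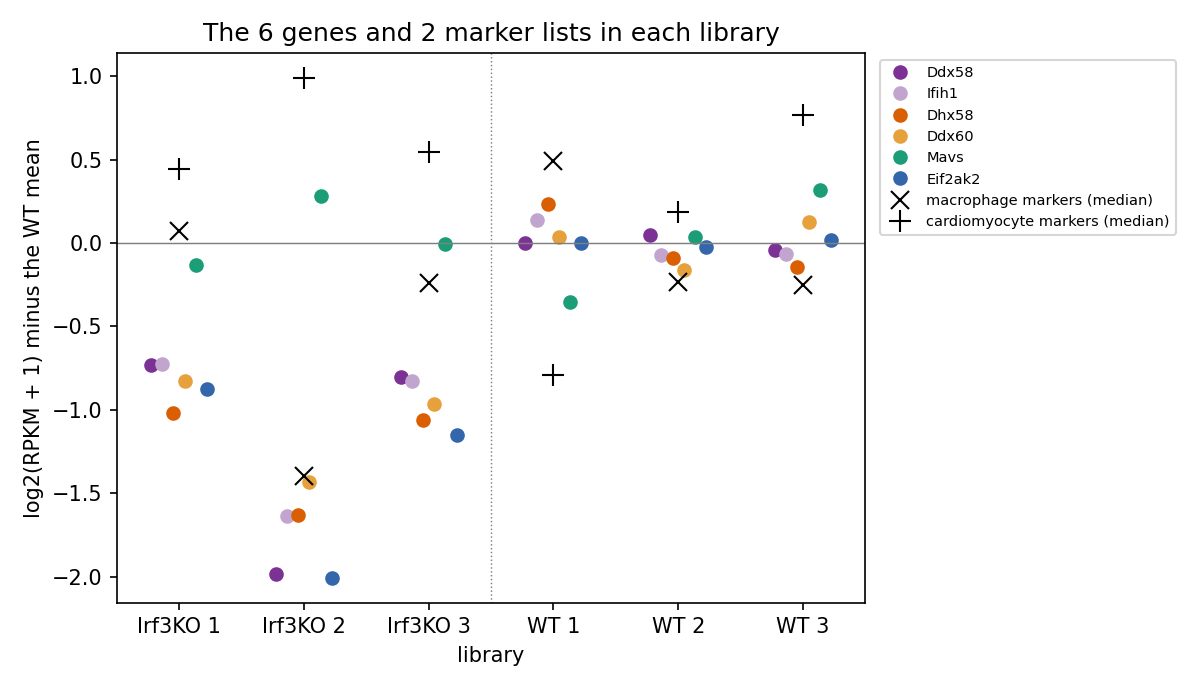
Distance of each gene from its WT mean on the log2(RPKM + 1) scale (y axis) in each library (x axis), beside the medians of 15 macrophage markers (crosses) and 12 cardiomyocyte markers (plus signs). In Irf3KO replicate 2 the macrophage markers stood at -1.40 and Ddx58 at -1.98, while in Irf3KO replicate 1 the macrophage markers stood at 0.07 and Ddx58 at -0.73.

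Macrophage markers varied between libraries beside the 5 genes. In Irf3KO replicates 1 and 3 the median of the macrophage markers was 0.07 and -0.24 relative to the WT mean, and Dhx58 was at -1.02 and -1.06. In Irf3KO replicate 2 the markers were at -1.40 and Dhx58 at -1.63. Among WT libraries the macrophage markers stood at 0.49, -0.23 and -0.25, Dhx58 at 0.24, -0.09 and -0.15, and Ifih1 at 0.14, -0.07 and -0.07, so that both genes had the sign of the markers there. The other 3 genes lay between -0.16 and 0.12 in WT and did not all have that sign. Pearson's r with the summed macrophage markers, of which Lyz2 is the largest part, ran from 0.37 for Ddx60 to 0.542 for Ddx58 over 6 libraries. Over all libraries 0 of the 15 macrophage markers were called by limma, beside 0.503% of all genes. An unadjusted p under 0.05 was found for 4 of the 15, beside 8.4% of all genes. In 3 of the 15, Mertk, Ly6c2 and Plac8, all Irf3KO libraries lay below WT, beside 11.8% of all genes. The 9 fibroblast markers summed to 4669, 3724 and 5143 RPKM in Irf3KO and 6541, 6543 and 5864 RPKM in WT. These sums were lower in all 3 Irf3KO libraries than in any WT library. Limma called 0 of the 9, and 1 had an unadjusted p under 0.05, beside 0.503% and 8.4% of all genes. In 3 of the 9 all Irf3KO libraries lay below WT, beside 11.8% of all genes. The part of the macrophage and fibroblast markers in these results was not tested.

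Mavs ran with cardiomyocyte markers across the libraries of both genotypes. The summed markers, which include Myh6 and Tnnt2, gave 15384, 24085 and 17741 RPKM in Irf3KO replicates 1 to 3 and 7253, 13795 and 19859 RPKM in WT replicates 1 to 3. In both genotypes the replicate with the highest sum had the highest Mavs and the replicate with the lowest sum the lowest Mavs. Pearson's r between Mavs and this sum on log2 scales was 0.892 over 6 libraries, and r between Mavs and the summed macrophage markers was -0.875. These are descriptions over 6 libraries, whose genes share 1 scaling by depth. Of the 12 cardiomyocyte markers limma called 0, and 1 had an unadjusted p under 0.05, beside 8.4% of all genes. Their median log2 ratio was 0.57, beside -0.09 over all genes, and 0 of the 12 had a ratio below 0. The groups overlapped for each marker: 0 of the 12 had all Irf3KO libraries above WT, beside 6.61% of all genes. The part of these markers in the level of Mavs was not tested. For the other 5 genes the r with the cardiomyocyte sum ran from -0.73 for Dhx58 and -0.703 for Ifih1 to -0.586 for Ddx60, with -0.622 for Eif2ak2. In WT, Dhx58 and Ifih1 were highest in replicate 1, which had the lowest sum.

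**Figure D3:**
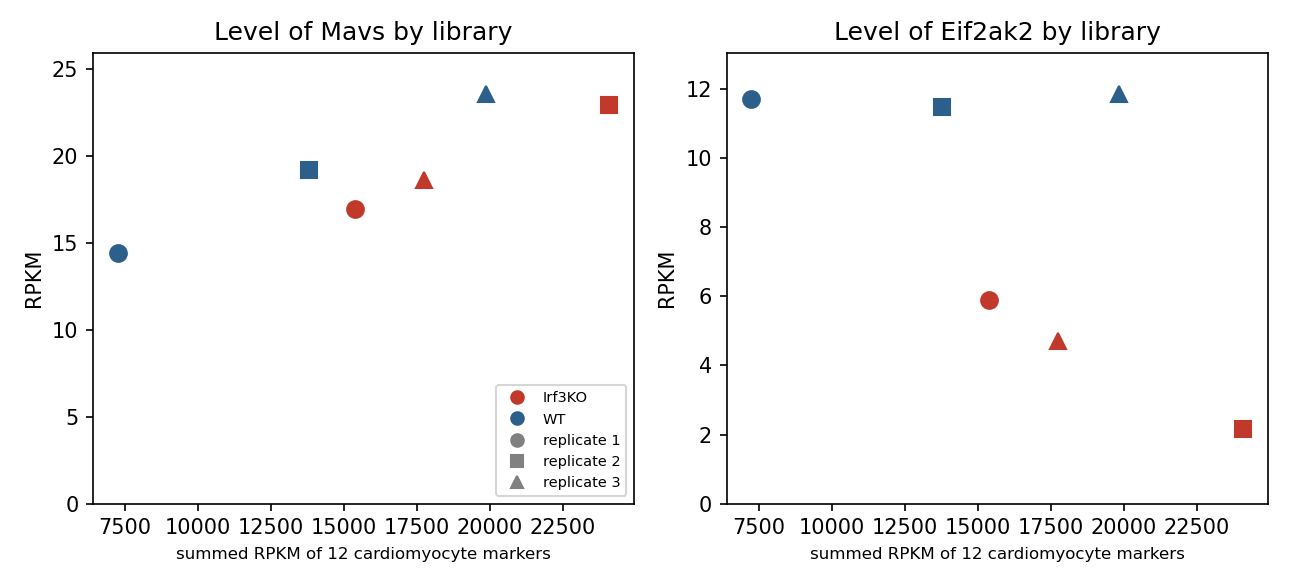
Level in RPKM of Mavs (left) and Eif2ak2 (right) against the summed RPKM of 12 cardiomyocyte markers, 1 point per library, with Irf3KO in red and WT in blue. Mavs was lowest, at 14.39 RPKM, at the lowest sum and highest, at 23.55 RPKM, in WT replicate 3, and Eif2ak2 lay between 2.16 and 5.9 RPKM in Irf3KO and between 11.47 and 11.86 RPKM in WT.

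The genes with the most similar profiles were looked up for each of the 6 by Pearson's r of log2(RPKM + 1) over the 6 libraries. All of these profiles share the genotype contrast and the low Irf3KO replicate 2, so high values of r are frequent. Closest to Ddx58 was Stat2 (r = 0.999), a subunit of the interferon-activated transcription complex, followed by Sytl4 and Tor3a (both r = 0.998). Stat2 stood at 10.92, 4.47 and 10.64 RPKM in Irf3KO and 17.31, 18.6 and 17.76 RPKM in WT. Among the 3 genes closest to Ifih1 were Zfp462 (r = 0.998) and Darc (r = 0.997). Dhx58 was closest to Treml2, Pyhin1 and Bst2 (r = 0.998, 0.997 and 0.996). Pyhin1, which encodes a member of the family of nucleic acid binding PYHIN proteins, fell in Irf3KO, with 2.42, 1.15 and 2.14 RPKM against 10.07, 7.66 and 7.2 RPKM in WT (log2 ratio -1.70, limma adjusted p = 0.0268). It was not called in 4 of the 6 fits that left out 1 library, those without Irf3KO replicate 3 or without WT replicate 1, 2 or 3 (adjusted p = 0.0830 to 0.137).

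Ddx60 was closest to Igtp, an interferon-inducible GTPase gene (r = 0.994), and to H2-Q4 and Trim30c (both r = 0.993), which belong to families with near-identical copies whose reads may be split. Eif2ak2 was closest to Slfn8, Dtx3l and Smarca2 (r = 0.998, 0.998 and 0.997). Dtx3l, which encodes a ubiquitin ligase that pairs with an antiviral PARP protein, stood at 7.98, 3.67 and 6.88 RPKM in Irf3KO, against 12.67, 12.72 and 12.55 RPKM in WT. The neighbours of Mavs were of another kind. They were Myl1, a myosin light chain gene of muscle (r = 0.992), Kcnj12, a potassium channel gene of heart muscle (r = 0.987), and Schip1 (r = 0.985). Myl1 stood at 11.49, 23.47 and 13.38 RPKM in Irf3KO and at 7.87, 16.41 and 22.7 RPKM in WT, and the groups overlapped as they did for Mavs.

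Genes that act on the sensors were not called in either direction. Of 22 tested genes that modify or bind RIG-I and MDA5, limma called 0 in either direction and 1 had an unadjusted p under 0.05, where the share over all genes was 8.4%. Their median log2 ratio with all libraries was -0.23, beside -0.09 over all genes. Without Irf3KO replicate 2 it was -0.047, and the median over all genes is not given for that fit. Trim25, the ubiquitin ligase that activates RIG-I, averaged 11.1 ± 4.15 RPKM in Irf3KO and 17.4 ± 2.56 RPKM in WT (SD, n = 3 each; log2 ratio -0.66 ± 0.29, adjusted p = 0.556). Ppp1ca, a phosphatase subunit that removes inhibitory phosphates from RIG-I and MDA5, averaged 289 ± 87.0 RPKM in Irf3KO and 192 ± 21.5 RPKM in WT (adjusted p = 0.556). Arl16, studied as an inhibitor of RIG-I, had the smallest p of the list, with 2.35 ± 0.312 RPKM in Irf3KO and 3.53 ± 0.166 RPKM in WT (adjusted p = 0.556). The log2 ratio of Trim25 without Irf3KO replicate 2 was -0.34 and that of Ppp1ca 0.32, against 0.55 with all libraries.

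At and below MAVS, 1 of 29 tested genes was called, beside 0.503% of all genes. An unadjusted p under 0.05 was found for 2, beside 8.4% of all genes. The gene called was Irf7, whose product boosts interferon output once induced, which fell to 4.79, 4.83 and 6.25 RPKM in Irf3KO, against 40.56, 24.43 and 32.68 RPKM in WT (log2 ratio -2.39 ± 0.23, limma adjusted p = 0.00367). It was called whichever library was left out. Irf3 followed with a log2 ratio of -0.65 ± 0.18 (adjusted p = 0.344), and Casp8, a protease that can join the MAVS complex, with -0.63 ± 0.36 (adjusted p = 0.556), or -0.23 without Irf3KO replicate 2. The median of the 29 genes was -0.21, and 0.01 without Irf3KO replicate 2.

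Of 22 tested genes around PKR and the stress response that it shares with 3 other kinases of eIF2 alpha, limma called 0 in either direction, 2 had an unadjusted p under 0.05, near the 8.4% of all genes, and the median log2 ratio was 0.02. Ddit3, a transcription factor induced by that response, averaged 5.65 ± 2.06 RPKM in Irf3KO and 10.05 ± 1.61 RPKM in WT (SD, n = 3 each; log2 ratio -0.77 ± 0.27, adjusted p = 0.520). Dnajc3, which encodes an inhibitor of PKR, averaged 20.9 ± 9.95 RPKM in Irf3KO and 37.6 ± 5.58 RPKM in WT (-0.94 ± 0.37, adjusted p = 0.556). Ppp1r15a, which directs the phosphatase back to eIF2 alpha, averaged 7.87 ± 0.944 RPKM in Irf3KO and 5.63 ± 1.02 RPKM in WT (0.43 ± 0.20, adjusted p = 0.556). With Irf3KO replicate 2 left out, the log2 ratio was -0.51 for Ddit3 and -0.48 for Dnajc3. For Ddit3 and Dnajc3 all Irf3KO libraries lay below WT, and for Ppp1r15a all lay above WT. The activity of PKR is set by phosphorylation and was not measured here.

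Other helicases and double-stranded RNA binding proteins were not called. Of 26 tested, limma called 0 in either direction and 0 had an unadjusted p under 0.05, beside 8.4% of all genes. Their median log2 ratio was -0.32, and -0.048 without Irf3KO replicate 2. Adar, the enzyme that edits double-stranded RNA and so shields it from MDA5, averaged 8.09 ± 2.36 RPKM in Irf3KO and 11.5 ± 1.0 RPKM in WT (SD, n = 3 each; log2 ratio -0.50 ± 0.24, adjusted p = 0.556). Dhx36 and Ddx5, RNA helicases, had log2 ratios of -0.69 ± 0.31 and -0.86 ± 0.39 (adjusted p = 0.556 each), with groups that overlapped. Leaving out Irf3KO replicate 2 gave log2 ratios of -0.26 for Adar, -0.37 for Dhx36 and -0.39 for Ddx5.

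**Figure D4:**
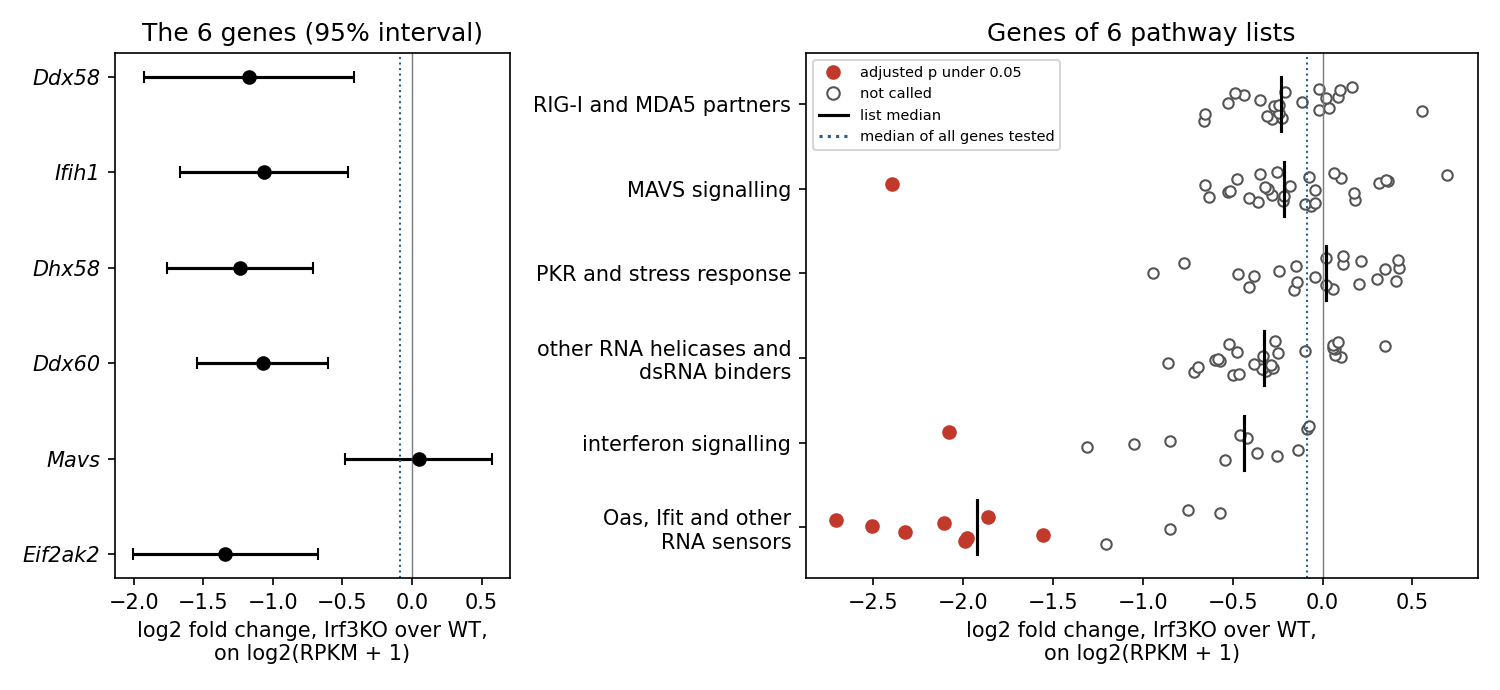
Log2 ratio of Irf3KO over WT on log2(RPKM + 1) (x axis) for the 6 genes with 95% intervals (left) and for the genes of 6 pathway lists (right), where red points passed an adjusted p of 0.05 and the dotted line is the median of all genes. The intervals of 5 of the 6 genes lie below 0 and that of Mavs spans it, and 8 of the 12 Oas, Ifit and other RNA sensor genes are red.

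Of 12 genes that carry or curb the interferon signal, 1 fell, beside 0.356% of all genes. An unadjusted p under 0.05 was found for 5, beside 8.4% of all genes. Usp18, a brake on the interferon receptor, fell to 2.23 ± 0.864 RPKM in Irf3KO, against 12.4 ± 2.0 RPKM in WT (SD, n = 3 each; limma adjusted p = 0.0129). It was not called without WT replicate 1, 2 or 3 (adjusted p = 0.0637 to 0.117). Stat2 had a log2 ratio of -1.05 ± 0.31 (limma, adjusted p = 0.402), or -0.68 without Irf3KO replicate 2. The median of the list was -0.44, and -0.17 without Irf3KO replicate 2.

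Most of the other sensors and binders of foreign RNA fell. Of 12 tested Oas, Ifit, Toll-like receptor and related genes, limma called 8 lower and 0 higher, beside 0.356% and 0.147% of all genes. Their median log2 ratio was -1.92, or -1.75 without Irf3KO replicate 2. Ifit3, which binds viral RNA, fell to 4.09 ± 1.28 RPKM in Irf3KO, against 31.8 ± 5.21 RPKM in WT (SD, n = 3 each; limma adjusted p = 0.0029), and was called whichever library was left out. Oasl2, which is related to the oligoadenylate synthases, had a log2 ratio of -2.32 ± 0.26 (adjusted p = 0.00846). Zbp1, a sensor of left-handed nucleic acid helices, had one of -1.86 ± 0.23 (adjusted p = 0.0132). Ifit1, Oas3 and Oasl1, of the same families as Ifit3 and Oasl2, stood at -2.51, -1.98 and -1.56 (adjusted p = 0.00719, 0.0148 and 0.0148). Between 1 and 8 genes of the list were called when 1 library was left out, 1 of them without WT replicate 3, 3 without WT replicate 1 or Irf3KO replicate 3 and 5 without WT replicate 2. The list was chosen with earlier results of these libraries known and is no independent evidence of direction.

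**Figure D5:**
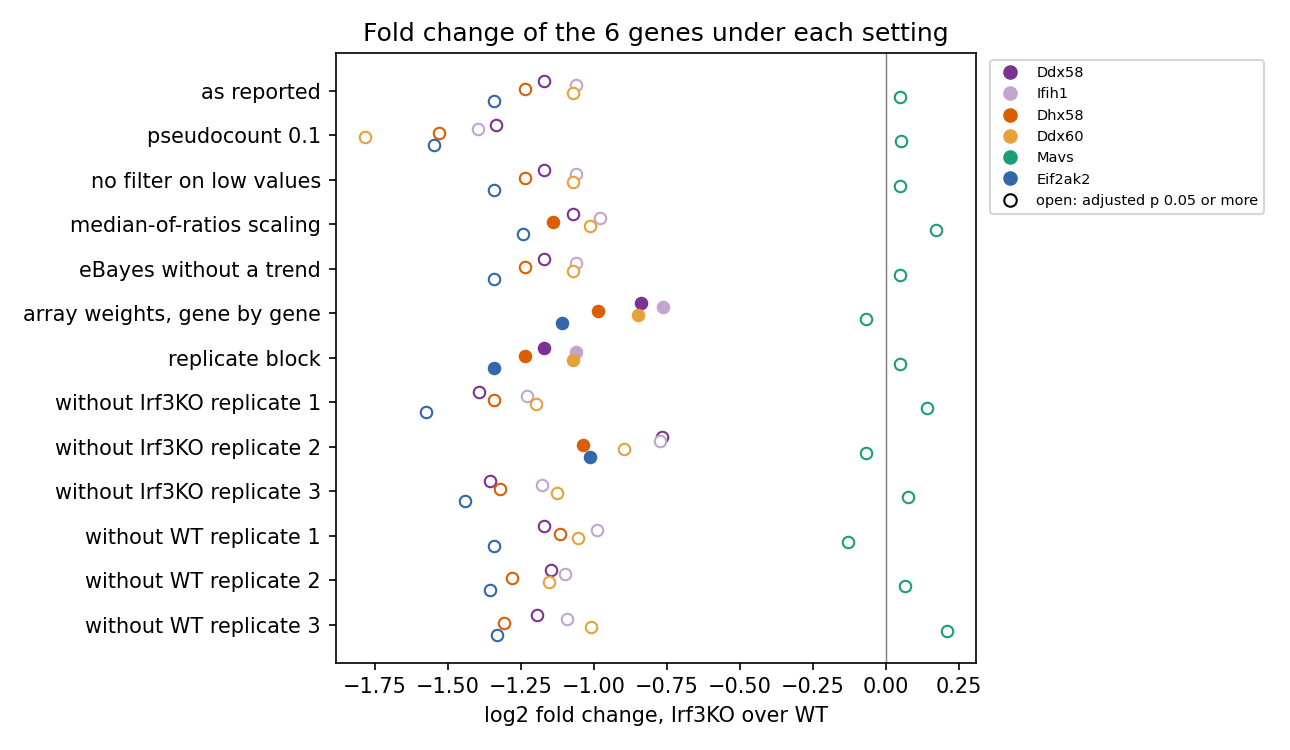
Log2 ratio of Irf3KO over WT (x axis) of the 6 genes under the reported fit and 12 other settings (y axis), with filled points where the adjusted p was under 0.05. The 5 lower genes stay below -0.7 in every setting shown, Mavs lies between -0.13 and 0.21, and without Irf3KO replicate 2 the filled points are Dhx58 at -1.04 and Eif2ak2 at -1.01.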

How the data were processed

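RNA-seq was done on infarct tissue in 3 Irf3KO and 3 WT libraries. The authors deposited RPKM rounded to 2 decimals, with a gene length. Named in the submitters' processing notes, without order, are STAR 2.3.0, HTSeq 0.6.0, Picard 1.100, edgeR 3.8.6, SAMtools 0.1.18.0 and the build NCBIM37 (mm9). The sources used here do not give settings, strand, handling of multi-mapping reads or the filter behind the listed genes.

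Columns were matched to samples by title, and 5 rows with a split name were repaired. Depth came from the spacing of low RPKM multiplied by length, where 100% of low values fell within 0.2 reads of a whole number. Testing used limma 3.58.1 (R 4.3.3, eBayes with a trend, two-sided, Benjamini-Hochberg, threshold 0.05) on log2(RPKM + 1). It covered the 12913 genes that averaged 1 RPKM or more. The fit was checked on simulated data in which genes varied independently and no library stood apart. That check does not cover a library such as Irf3KO replicate 2. The added 1 understates changes of low genes. The labels do not say whether each library is 1 animal, so p-values cover the spread between libraries only, which may be technical.

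The genes and lists were chosen with earlier results of these data known. Named genes were the 6, Irf3, the 3 genes of each list with the smallest p, up to 6 called genes of each list, and the 3 most alike genes of each of the 6, with Isg15 and Ifit1 for comparison, passing over predicted, clone and accession-style names. The 3 macrophage markers singled out were named after their values were seen. Some genes that this rule names are not reported here. Promoters and coordinates are RefSeq of GRCm38.p6, matched by symbol, and were not placed on mm9.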

Additional observations from a re-analysis of the deposited data

How the results depend on the processing

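Dhx58 passed after median-of-ratios scaling (-1.14), the only 1 of the 6 genes to do so. That scaling moved the median of all genes by 0.11 on the log2 scale, to 0.02, and left the 5 lower genes between -0.98 and -1.24 and Mavs at 0.17. With weights per library, chosen after seeing the data because limma's default estimate of them did not converge, 1751 genes were called lower and 1209 higher, against 46 and 19 in the reported fit. Of the 6, 5 were then called, Ddx58 at -0.84, Ifih1 at -0.77, Dhx58 at -0.99, Ddx60 at -0.85 and Eif2ak2 at -1.11, and Mavs was at -0.067. Irf3KO replicate 2 had a weight of 0.103 and Irf3KO replicate 3 of 6.36 in that fit. It also called lower 2 of 22 regulators of the sensors, 2 of 29 genes at MAVS and 3 of 22 around PKR. Called lower too were 5 of 26 other RNA binders and 4 of 12 interferon signalling genes. These counts stand beside 1751 of all 12913 genes called lower in that fit. In the reported fit they were 0, 1, 0, 0 and 1, beside 46 of the 12913 genes.

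With a replicate block 187 genes were called lower and 63 higher, among them 5 of the 6, Ddx58 at -1.17, Ifih1 at -1.06, Dhx58 at -1.24, Ddx60 at -1.07 and Eif2ak2 at -1.34. The numbers do not pair the samples: deviations from the group means correlated by 0.129, -0.0978 and -0.102 for numbers 1 to 3, and no label gives a shared day or litter.

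Leaving out 1 library at a time gave 15 to 70 genes called lower and 6 to 27 called higher, and 0 to 2 of the 6. Dhx58 ranged between -1.34 and -1.04, Eif2ak2 between -1.58 and -1.01, Ddx58 between -1.39 and -0.77, Ifih1 between -1.23 and -0.77, Ddx60 between -1.20 and -0.90 and Mavs between -0.13 and 0.21. Calls came without Irf3KO replicate 2. Their adjusted p over the 6 fits ran from 0.0418 to 0.319 for Dhx58 and from 0.0284 to 0.462 for Eif2ak2. Counts without the WT libraries or Irf3KO replicate 3 were 15 to 23 lower and 6 to 8 higher. Genes alike to Mavs changed sign as it did, Myl1 between -0.31 and 0.40 (-0.29 with weights), Kcnj12 between -0.091 and 0.46, and Schip1 between -0.20 and 0.20 (-0.12 with weights). The causes were not tested. A pseudocount of 0.1, no filter on low values and a fit without a trend called none of the 6.

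Counting error was 1.61% to 15.1% of each value of the 6 genes and covers sampling of reads only. The number of 3 libraries per group limits the precision.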

Other observations

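In Irf3KO replicate 2 the 5 lower genes and other interferon-stimulated genes differed in how far they stood below the other Irf3KO libraries. Relative to the mean of Irf3KO replicates 1 and 3, Ddx58 was at 34.8%, Ddx60 at 36.7%, Ifih1 at 37.9%, Eif2ak2 at 40.7% and Dhx58 at 54.6%. Stat2 was at 41.5% and Ifit1 at 48.8%. Isg15 was at 74.3% and Irf7 at 87.5%, close to the median over all genes tested of 77.5%, and Mavs was at 129%. These are values of 1 library with no test.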
